A study of Mus musculus with 24 samples.

Results

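Interferon-stimulated genes are the genes that a cell switches on when interferon reaches it, and 40 of them, chosen by name as well-known members of that response, were read here in the endothelium of mice with and without galectin-3 on a high-fat or a chow diet. The arrays held a probe with a matched accession for 38 of the 40, among 18539 gene symbols in all. Mx1 and Mx2 were not analysed here. The 38 genes were read by 55 probes, 14 of them by more than 1 probe.

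Type I interferons bind a receptor that signals through the kinases Jak1 and Tyk2 to a complex that holds Stat2 and Irf9 and binds the interferon-stimulated response element in target promoters, while interferon gamma acts through the gamma-activated site. The proteins made in response block viral replication, sense foreign nucleic acid, tag proteins with the ubiquitin-like modifier Isg15, and raise antigen presentation. Endothelial cells carry both receptors and express many of these genes at a resting level.

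The study fed male mice from 8 weeks of age for 8 weeks on chow (12% of calories from fat) or on a high-fat diet (HFD; 60% of calories from fat), and asked how the endothelial response to the diet differs without galectin-3. The wild type (WT) was C57BL/6, and the knockout (KO) was galectin-3 (-/-), a line lacking part of Lgals3 in every cell. From each group the whole length of the aorta and a set of leg muscles were digested, and about 10000 live cells that carried endoglin (CD105) and lacked the leukocyte antigen CD45 were sorted from a pool of 3 to 4 mice. Endoglin is not exclusive to endothelium, so other cells may be among those sorted. Each array is 1 pool of mice from 1 experiment. The 8 groups (2 tissues, 2 strains, 2 diets) were each repeated in 3 experiments, giving 24 single-colour arrays.

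The 4 arrays of a tissue and an experiment shared a slide, and experiment 1 was scanned in another session than experiments 2 and 3. The 75th percentile of the signal ran from 2390 to 5938 among the arrays, and 59.5% to 75.7% of spots were well above background. Levels below are log2 signals minus the log2 of that array's 75th percentile, so that 0 is the 75th percentile and a difference of 1 is a doubling. All 12 endothelial markers were well above background on every array of both tissues. The HFD arrays of experiment 1 stood apart from their labels. Positions were read on 9 probes that separated the strains in experiments 2 and 3, with WT at 0 and KO at 1. The experiment 1 HFD arrays of WT stood at 0.18 (aorta) and 0.37 (muscle), and their KO counterparts at 0.38 and 0.43. The experiment 1 chow arrays stood at -0.11 and 0.10 for WT and at 0.91 and 1.02 for KO. Arrays of experiments 2 and 3 chose the probes and set the scale, so their own positions are no check. The strains are therefore not cleanly separated on the 4 HFD arrays of experiment 1, and several results that use these arrays are also given without experiment 1. The signal of the Lgals3 probe did not check the genotype, since its position relative to the deleted exons is not given in the sources used here. Its mean level was 4.69 on WT chow and 4.94 on KO chow muscle arrays.

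The promoters show what these genes share in sequence. A 300-base window, 250 bases before and 50 bases after the RefSeq start site on GRCm38.p6, was found for 32 of the 40 genes. The core of the interferon-stimulated response element, searched as GAAA, any 2 bases and GAAA again on either strand, stood in the window of 16 of the 32, or 50%, against 3.99% of 27025 genes. The gamma-activated site, searched as TTCNNNGAA on either strand, stood in 10 of the 32, or 31.2%, against 9.55% of all genes. The response element core was found in 4 of 4 interferon-inducible GTPases, 8 of 14 antiviral effectors, 2 of 2 sensors of foreign RNA, and in none of the 3 antigen processing genes. A match is a description of the letters and not a bound site. Of the genes named in the muscle results below, Ifi44, Ifit2 and Isg20, among others, had no core in their windows, and Zbp1 had no window. The bases before the start site are shown for 9 genes, all picked with a core match there. These 9 belong to the muscle results below or stand for the GTPases. The bases are read along the gene's strand, with the core in capitals, so that a reader can see single, doubled and overlapping copies. The first 3 belong to a 2′-5′ oligoadenylate synthetase pair and to the modifier Isg15.
Oas1a, chr5:120907526-120907565, minus strand: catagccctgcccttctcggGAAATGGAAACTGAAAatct
Oas3, chr5:120777705-120777754, minus strand: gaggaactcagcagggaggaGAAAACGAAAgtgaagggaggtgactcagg
Isg15, chr4:156200855-156200916, minus strand: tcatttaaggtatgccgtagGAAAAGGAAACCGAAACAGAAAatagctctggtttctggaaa
Ifit1, chr19:34640765-34640833, plus strand: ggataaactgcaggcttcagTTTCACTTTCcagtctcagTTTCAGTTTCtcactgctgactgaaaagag
Ifit3, chr19:34583353-34583436, plus strand: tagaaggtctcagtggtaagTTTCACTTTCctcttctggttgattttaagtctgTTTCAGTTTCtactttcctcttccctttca
Gbp2, chr3:142620584-142620633, plus strand: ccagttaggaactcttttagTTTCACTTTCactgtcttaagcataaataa
Gbp3, chr3:142559979-142560034, plus strand: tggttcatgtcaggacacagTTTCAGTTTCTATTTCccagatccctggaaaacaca
Igtp, chr11:58199502-58199551, plus strand: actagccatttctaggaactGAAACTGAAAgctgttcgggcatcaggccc
Irgm1, chr11:48871421-48871470, minus strand: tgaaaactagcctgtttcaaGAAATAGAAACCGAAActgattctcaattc

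The members lay higher on HFD than on chow in skeletal muscle endothelium of both strains, although no single gene passed the test. On each array the median over the members of their distance from the gene's muscle mean was taken. It was -0.32, -0.29 and -0.16 on the WT chow arrays and 0.15, 0.19 and 0.57 on the WT HFD arrays. It was -0.44, -0.25 and -0.17 on the KO chow arrays and 0.12, 0.18 and 0.53 on the KO HFD arrays. All 6 HFD arrays lay above all 6 chow arrays, and the strains overlapped on both diets. In aortic endothelium the same measure was -0.43, -0.25 and 0.07 for WT chow, -0.13, -0.04 and 0.25 for WT HFD, 0.02, 0.05 and 0.05 for KO chow, and -0.07, 0.15 and 0.27 for KO HFD. There the diets overlapped in both strains.

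**Figure D1:**
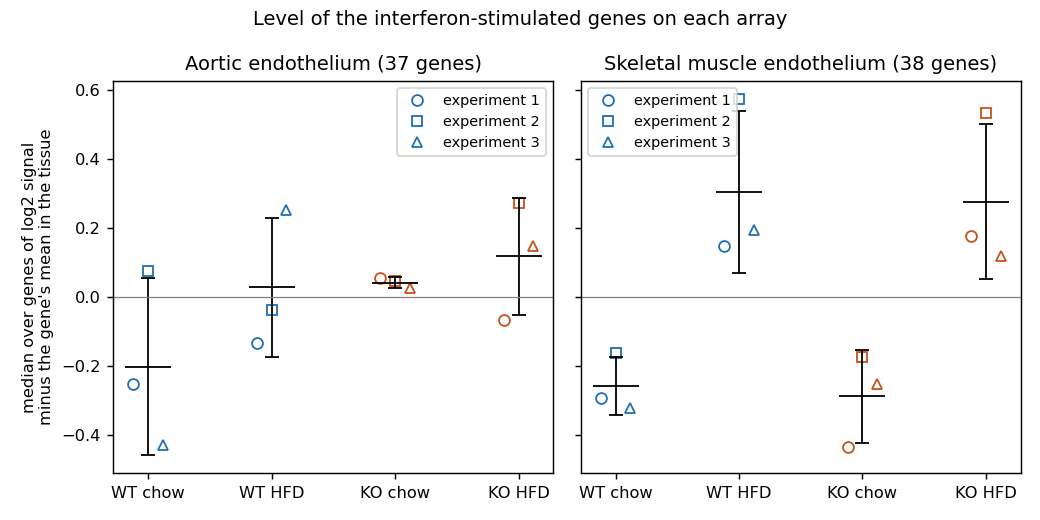
Median over the interferon-stimulated genes of the log2 signal minus the gene's mean in the tissue (y axis, log2) on each of the 24 arrays, by group (x axis), with aorta and skeletal muscle in separate panels and a symbol for each experiment. In muscle the 6 HFD arrays lie from 0.12 to 0.57 and the 6 chow arrays from -0.44 to -0.16, while in aorta the diets overlap.

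In WT muscle endothelium the median log2 ratio of HFD to chow over the 38 members was 0.52, and it was 0.39, 0.73 and 0.46 in the 3 experiments, against a median of 0.04 over all 13623 genes tested. The ratio was above 0 in all 3 experiments for 29 of 38 members, where 20.4% of all genes met this. Only Ifitm1 was below 0 in all 3, where 16.2% of genes were. Every HFD array lay above every chow array for 19 members, against 7.74% of genes. limma called 0 members at an adjusted p of 0.05, as it called 0 of all genes in either direction, and the background is 0%. A log2 ratio above 1 in all 3 experiments was found for 3 members (Zbp1, Ifi44 and Oas1a), against 1.14% of genes, and every HFD array lay below every chow array for none, against 5.98%. At an unadjusted p of 0.05, 13 members were higher and 0 lower, against 6.2% and 4.8% of all genes. The smallest adjusted p among members was 0.158, for Oas1a. Each p rests on how the HFD to chow ratio varied between experiments, pooled over both strains and moderated by limma. This variation may be partly technical.

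In KO muscle endothelium the median log2 ratio was 0.53, and it was 0.43, 0.66 and 0.39 in the 3 experiments, against 0.05 over all genes. The ratio was above 0 in all 3 experiments for 25 members, against 15.3% of genes, and below 0 in all 3 for none of them, against 12.8%. Every HFD array lay above every chow array for 17 members, against 4.54% of genes. limma again called 0 members, with a background of 0% for higher calls and 0.00734% for lower calls. An unadjusted p of 0.05 was met by 15 members, all of them higher, against 4.1% of genes higher and 3.47% lower. A log2 ratio above 1 in all 3 experiments was found for 2 members, Oas1a and Oas3, against 0.529% of genes, and no member had every HFD array below every chow array, against 4.09%. Oas3 passed the filter only through the HFD groups and was well above background on 1 of 3 KO chow arrays. Its place in these counts is therefore no independent support. Of the members above 0 in all 3 experiments, 20 were shared between the strains, or 69% of those in WT and 80% of those in KO. Over all genes tested 956 were shared, or 34.5% of those in WT and 45.9% of those in KO. The strains were on separate arrays but shared slides. Leaving out experiment 1 left the median at 0.56 in WT and 0.54 in KO. By single experiment, 32, 36 and 35 of the 38 members were above 0 in WT and 34, 32 and 32 in KO. Correlations between genes were taken on deviations from the group means, so diet and strain differences are left out of them. Over the 12 muscle arrays the mean pairwise correlation was 0.15 among members and 0.05 among all genes tested. In aorta it was 0.13 and 0.05, given as a description over arrays that share slides.

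**Figure D2:**
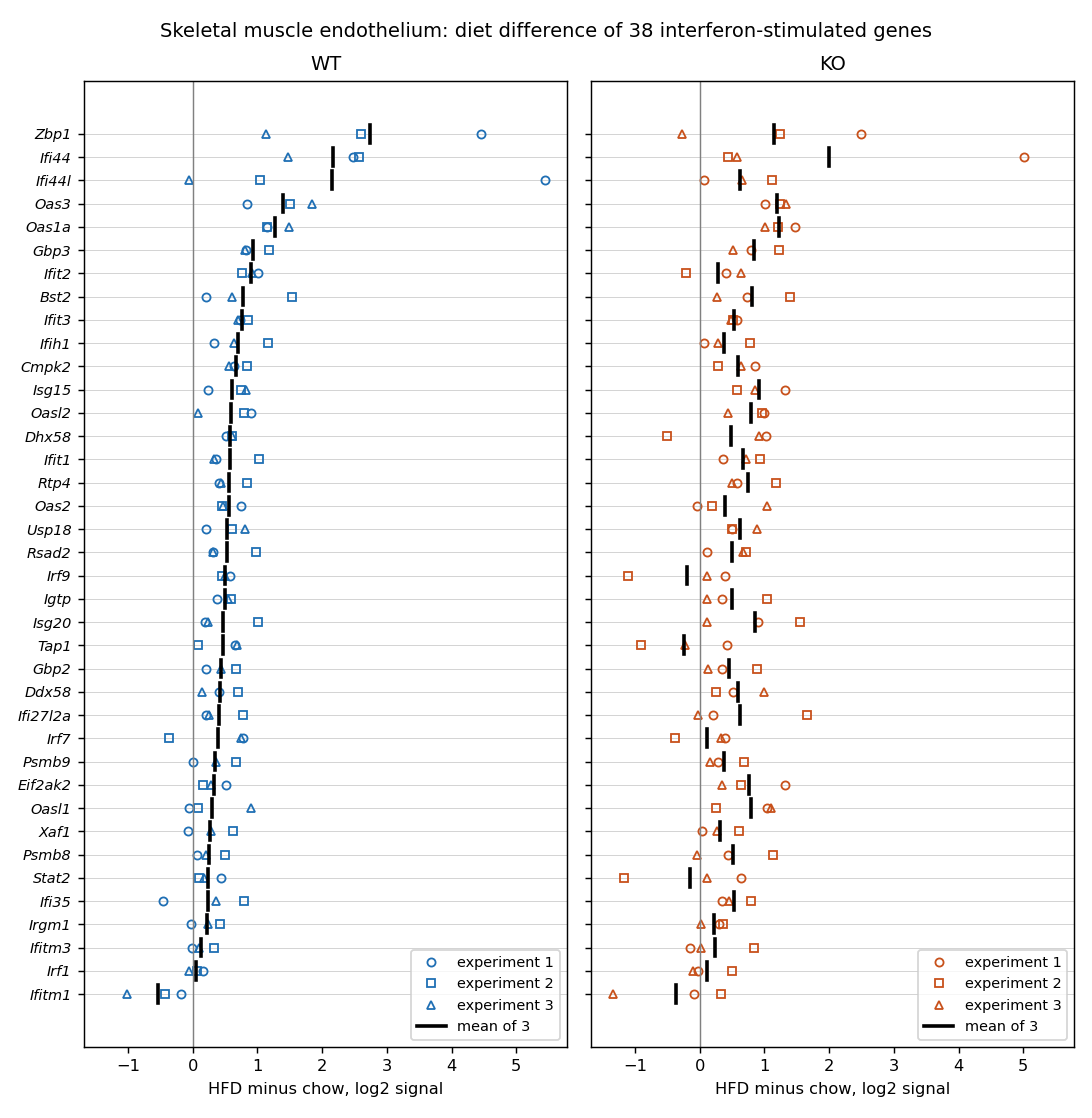
Log2 ratio of HFD to chow (x axis) for the 38 interferon-stimulated genes in skeletal muscle endothelium, with 1 gene per line in the order of the WT mean, 1 symbol per experiment and a bar at the mean, WT and KO in separate panels. Most points lie right of 0 in both strains, with 29 genes in WT and 25 in KO right of 0 in all 3 experiments.

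By role, the antiviral effectors were above 0 in all 3 experiments for 13 of 16 genes in WT and 12 of 16 in KO. Oas1a and Oas3 are 2′-5′ oligoadenylate synthetases, which make the second messenger that activates RNase L. Oas1a stood at -0.40, 0.34 and -0.33 on the WT chow arrays and at 0.75, 1.49 and 1.16 on the WT HFD arrays. It stood at -0.85, 0.01 and -0.44 on the KO chow arrays and at 0.62, 1.22 and 0.57 on the KO HFD arrays. The diets did not overlap in either strain, and all 6 ratios were above 1. The mean log2 ratio of Oas1a was 1.27 in WT (SE 0.21, adjusted p = 0.158 by limma) and 1.23 in KO (SE 0.21, adjusted p = 0.275 by limma).

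Oas3 stood at -5.39, -5.37 and -5.54 on WT chow and at -4.55, -3.87 and -3.70 on WT HFD arrays. It stood at -6.31, -5.23 and -5.47 on KO chow and at -5.31, -3.99 and -4.13 on KO HFD arrays. Oas3 was a dim probe, well above background on 2 of 3 WT chow and 1 of 3 KO chow arrays and on all 6 HFD arrays, and in KO the HFD array of experiment 1 fell within the chow range. Its mean log2 ratio was 1.40 in WT (adjusted p = 0.169 by limma) and 1.19 in KO (adjusted p = 0.370 by limma). In KO this is against chow values mostly not above background, and the probe passed the filter through the HFD groups. Oas2, the other synthetase read, had mean log2 ratios of 0.56 in WT and 0.40 in KO.

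Ifit3, one of the tetratricopeptide proteins that bind viral RNA and its partners, had a smaller and even difference. It stood at 3.83, 4.22 and 4.02 on WT chow, 4.56, 5.07 and 4.72 on WT HFD, 4.14, 4.27 and 3.95 on KO chow, and 4.72, 4.78 and 4.43 on KO HFD arrays. Its log2 ratios ran from 0.70 to 0.85 in WT and from 0.48 to 0.58 in KO, with no overlap of the diets in either strain. The reads of Ifit3 and of other genes with near-identical copies, such as Oas1a and Gbp3, can include signal from those copies, and this was not tested. Ifit2, which the study lists for muscle, stood at -1.70, -1.58 and -1.07 on WT chow and at -0.69, -0.81 and -0.15 on WT HFD arrays. In KO it stood at -1.53, -1.03 and -0.92 on chow and at -1.13, -1.23 and -0.28 on HFD arrays. The diets were apart in WT and overlapped in KO. The mean log2 ratio of Ifit2 was 0.90 in WT (adjusted p = 0.236 by limma) and 0.28 in KO (adjusted p = 0.753 by limma), and the difference of -0.62 between the strains had an adjusted p of 0.999.

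Bst2 (tetherin), which holds budding virus at the cell surface, had mean log2 ratios of 0.79 in WT and 0.80 in KO. Isg20, an exonuclease that degrades viral RNA, stood at 0.66, 1.41 and 0.89 on WT chow, 0.86, 2.42 and 1.12 on WT HFD, 0.55, 0.90 and 0.86 on KO chow, and 1.45, 2.46 and 0.97 on KO HFD arrays. Its diets overlapped in WT and were apart in KO, where the mean log2 ratio was 0.86. Ifitm1, a membrane protein that restricts viral entry, was the exception among the effectors, with mean log2 ratios of -0.54 in WT and -0.37 in KO.

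Rtp4 had mean log2 ratios of 0.56 in WT and 0.75 in KO, Rsad2 (viperin), which makes a chain-terminating nucleotide, 0.54 and 0.49, and its neighbour and partner enzyme Cmpk2 0.68 and 0.60. Ifit1, which binds foreign RNA ends, stood at 1.60, 2.08 and 2.33 on WT chow, 1.97, 3.12 and 2.66 on WT HFD, 1.87, 2.03 and 2.15 on KO chow, and 2.24, 2.97 and 2.86 on KO HFD arrays, with overlapping diets in WT and separate ones in KO. Eif2ak2 (PKR), the kinase that halts translation on double-stranded RNA, had 0.32 in WT and 0.76 in KO. The oligoadenylate synthetase-like genes Oasl1 and Oasl2 had 0.31 and 0.59 in WT and 0.79 and 0.80 in KO. Ifitm3, a relative of Ifitm1, had 0.14 in WT and 0.23 in KO. None of these differences between the strains passed the test of the difference.

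Both genes of the Isg15 system were higher in all 3 experiments in both strains. Isg15, the modifier itself, stood at 1.83, 1.83 and 1.50 on WT chow and at 2.07, 2.58 and 2.32 on WT HFD arrays. On KO arrays Isg15 stood at 1.30, 1.74 and 1.26 on chow and at 2.61, 2.32 and 2.12 on HFD. The diets were apart in both strains, with mean log2 ratios of 0.60 in WT and 0.92 in KO. Usp18, the protease that removes Isg15 and damps the receptor, had mean log2 ratios of 0.54 and 0.63 with the diets apart in both strains.

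The RNA sensors Ifih1 (MDA5) and Ddx58 (RIG-I) had mean log2 ratios of 0.71 and 0.42 in WT and 0.38 and 0.58 in KO, and Dhx58 (LGP2), a regulator of both, 0.58 in WT and 0.48 in KO. Among the 4 sensors, 4 of 4 were above 0 in all 3 experiments in WT and 2 of 4 in KO. Zbp1, which senses left-handed nucleic acid and starts inflammatory cell death, stood at -6.73, -5.16 and -5.12 on WT chow and at -2.26, -2.55 and -3.98 on WT HFD arrays. It was well above background on 2 of the 3 WT chow arrays. On KO arrays Zbp1 stood at -4.80, -3.96 and -3.95 on chow and at -2.31, -2.73 and -4.22 on HFD. In WT the diets were apart, and in KO the HFD array of experiment 3 fell within the chow range. The log2 ratios of Zbp1 were 4.46, 2.61 and 1.14 in WT, a mean of 2.74 (SE 0.70, adjusted p = 0.235 by limma), and 2.49, 1.24 and -0.27 in KO, a mean of 1.15. Without experiment 1 these means were 1.87 in WT and 0.48 in KO. The strain difference of the Zbp1 ratio was -1.59 (adjusted p = 0.999 by limma).

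Of the transcription factors, 2 of 4 were above 0 in all 3 experiments in WT and none of 4 in KO. Irf1 had mean log2 ratios of 0.06 in WT and 0.12 in KO, and Irf7, which drives interferon production, had 0.39 in WT and 0.11 in KO. Stat2 had 0.24 in WT and -0.14 in KO, and its partner Irf9 had 0.51 and -0.20.

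Among the other interferon-induced proteins, Ifi44 stood at -2.28, -1.24 and -0.58 on WT chow and at 0.20, 1.32 and 0.90 on WT HFD arrays. In KO muscle Ifi44 stood at -4.88, -0.26 and -0.09 on chow and at 0.12, 0.18 and 0.49 on HFD arrays. The diets were apart in both strains, but in KO the distance was mainly that of experiment 1. Ifi44 had a mean log2 ratio of 2.17 in WT (2.02 without experiment 1) and of 2.01 in KO (0.51 without experiment 1). Of the antigen processing genes, 3 of 3 were above 0 in all 3 experiments in WT and 1 of 3, the immunoproteasome subunit Psmb9, in KO. Tap1, the peptide transporter, had mean log2 ratios of 0.47 in WT and -0.24 in KO.

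The interferon-inducible GTPases, which attack the vacuoles of intracellular microbes, were above 0 in all 3 experiments for 3 of 4 genes in WT and 4 of 4 in KO. Gbp3 stood at 3.44, 3.46 and 3.52 on WT chow and at 4.26, 4.63 and 4.33 on WT HFD arrays. On KO arrays Gbp3 stood at 3.39, 3.20 and 3.56 on chow and at 4.19, 4.43 and 4.07 on HFD. Both diets lay in narrow ranges far apart, with mean log2 ratios of 0.93 in WT (adjusted p = 0.228 by limma) and 0.84 in KO (adjusted p = 0.444 by limma).

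**Figure D3:**
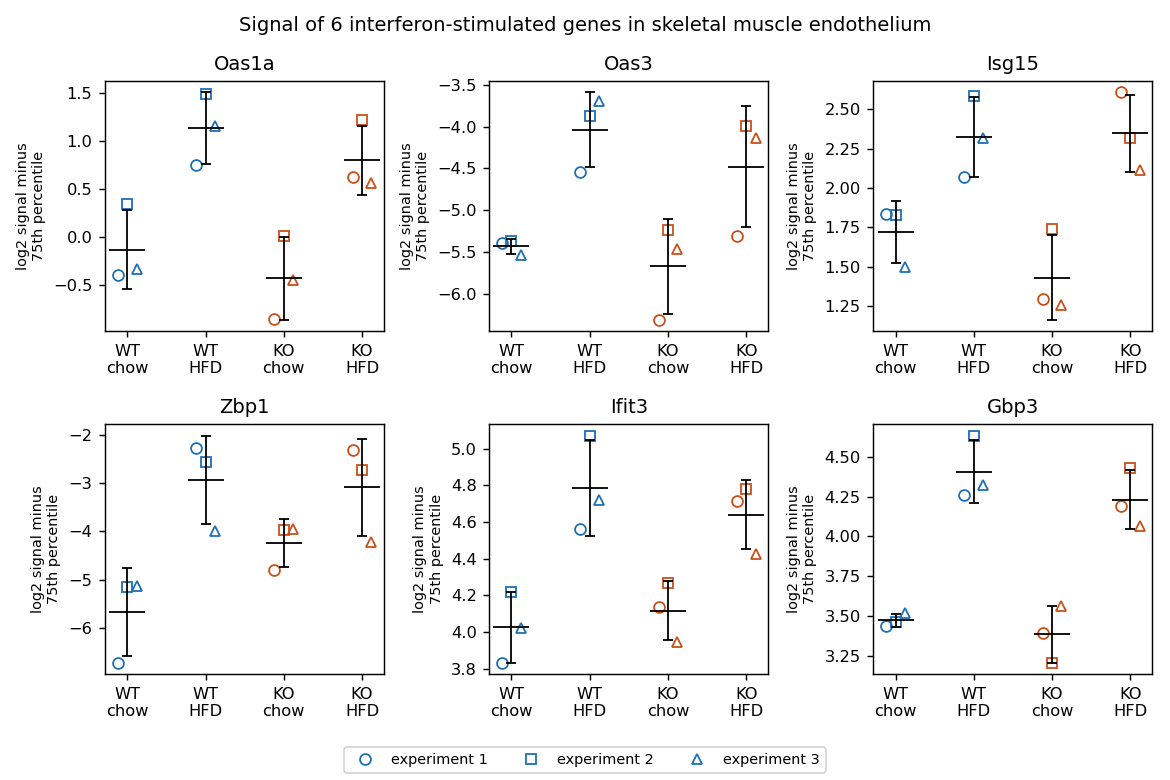
Log2 signal minus the array's 75th percentile (y axis) of Oas1a, Oas3, Isg15, Zbp1, Ifit3 and Gbp3 in skeletal muscle endothelium by group (x axis), with 1 symbol per experiment and the mean and SD of 3 arrays in black. The diets are apart in both strains for Oas1a, Isg15, Ifit3 and Gbp3, and in WT but not in KO for Oas3 and Zbp1.

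A few members gave another direction on a dimmer or second probe in muscle. In WT these were Irf9, with -1.22 against 0.51 on the brighter probe, Rsad2, with -0.48 against 0.54, and Irf1, with -1.36 against 0.06. The third Rsad2 probe gave 0.41 in WT. In KO they were Cmpk2 and Ifih1, with -0.29 and -0.67 on the other probe, and Ddx58. Ddx58 had -1.15 on a probe well above background on 9 of 12 arrays, and 0.05 and 0.14 on its remaining probes. The direction of these 6 genes thus depends on the probe read.

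The rest of the pathway was counted in muscle from lists of 5 roles and of further target genes. Of 19 interferon ligands 6 were tested, with median log2 ratios of -0.09 in WT and 0.29 in KO, and the 6 receptor genes had medians of -0.02 and 0.04. limma called none of these or of the 5 JAK-STAT, 7 inhibitor and 12 sensing genes tested. Of 48 further interferon-stimulated genes, 30 in WT and 22 in KO were above 0 in all 3 experiments, with medians of 0.41 and 0.26. Epsti1, an interferon-induced protein of epithelial and stromal cells, was well above background on all 3 WT HFD and on none of the WT chow muscle arrays, so that it was at least 6.15-fold higher on HFD (adjusted p = 0.151 by limma), and its mean log2 ratio was 0.78 in KO. Irf5, a transcription factor of the sensing pathway, had log2 ratios of 1.00, 2.79 and 1.91 in WT and no single direction in KO. Gbp6, a further GTPase, had a mean log2 ratio of 1.70 in WT (adjusted p = 0.131 by limma) and 0.59 in KO. Gbp4 and Ifi204, both listed by the study for muscle, had 1.04 and 1.16 in WT and 0.50 and 0.84 in KO. Gbp4 stood at 0.73, 1.04 and 1.38 on WT chow and at 1.76, 2.24 and 2.26 on WT HFD arrays, which were apart, and on KO arrays at 0.17, 1.06 and 1.45 on chow and at 1.06, 1.49 and 1.64 on HFD, which overlapped. Ifi204, a sensor of foreign DNA, stood at 1.84, 1.48 and 2.17 on WT chow and at 2.78, 3.12 and 3.06 on WT HFD arrays, and on KO arrays at 2.05, 1.55 and 2.21 on chow and at 2.25, 2.79 and 3.27 on HFD, so that its diets were apart in both strains.

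Markers of other cells moved beside the muscle result. In WT muscle 8 of 11 macrophage and monocyte markers tested were above 0 in all 3 experiments, with a median log2 ratio of 1.96, and their summed level, relative to the 75th percentile, ran from 1.95 to 6.71 on chow and from 3.00 to 13.3 on HFD arrays. In KO muscle none of 11 was, with a median of 0.97, and the sum ran from 2.02 to 5.42 on chow and from 1.75 to 30.7 on HFD arrays. The 3 experiments of KO muscle gave macrophage medians of 2.62, 2.30 and -2.16, and medians of the interferon-stimulated genes of 0.43, 0.66 and 0.39. The gate removes CD45+ cells. Ptprc, which encodes CD45, had a log2 ratio of 4.48 in WT and 1.45 in KO. Fibroblast markers had medians of 1.05 and 1.19, and endothelial markers of -0.08 and -0.07, with WT sums from 512 to 568 on chow and from 452 to 566 on HFD arrays. The part of these markers in the result was not tested in either strain. A larger number of responding cells and more RNA per cell cannot be told apart in sorted pools.

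In aortic endothelium the diet gave no like pattern. In WT the median log2 ratio over 37 members was 0.27 and differed between the experiments (0.11, -0.20 and 0.69), with 25, 13 and 33 of the 37 above 0. The ratio was above 0 in all 3 experiments for 8 members, against 15.9% of genes, and below 0 in all 3 for 1 member, against 11.3%. In KO the median was 0.03 (-0.26, 0.20 and 0.08; 15, 24 and 22 of 37 above 0), with 5 members above 0 in all 3 experiments against 19.6% of genes and 2 below against 14.8%. limma called 0 members in either strain, where the background is 0%, and an unadjusted p of 0.05 was met by 1 higher and 1 lower member in WT, against 3.15% and 2.06% of genes, and by 0 in KO, against 6.88% and 3.91%. Every HFD array lay above every chow array for 2 members in WT, against 3.66% of genes, and for 0 in KO, against 8.21%, and below for 1 member in each strain, against 3.35% and 6.05%. A log2 ratio above 1 in all 3 experiments was found for 1 member in WT, Zbp1, against 0.699% of genes, and for 0 in KO, against 2.04%. Oas3 was not tested in aorta, since its probe was well above background on 5 of 12 arrays.

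Zbp1 and Ifitm1 were the 2 members that met an unadjusted p of 0.05 in WT aorta. Zbp1 stood at -2.05, -2.88 and -4.95 on WT chow and at -0.65, -1.14 and -2.41 on WT HFD arrays. The groups overlapped, but HFD was higher within each experiment, by 1.39, 1.74 and 2.54 (mean 1.89, SE 0.46, adjusted p = 0.510 by limma). Ifitm1 stood at 1.92, 1.26 and 1.31 on WT chow and at 0.92, 0.53 and 0.40 on WT HFD arrays, with no overlap, and had a mean log2 ratio of -0.88 (adjusted p = 0.658 by limma). Oas2 stood at -0.48, 1.46 and -0.82 on WT chow and at 0.46, 1.49 and 1.80 on WT HFD arrays, and its mean log2 ratio of 1.20 came from experiments 1 and 3. Oas1a and Oasl2 both had a mean log2 ratio of 0.57 there.

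In KO aorta Oasl2 stood at 2.14, 2.87 and 1.73 on chow and at 2.76, 3.33 and 2.63 on HFD arrays, with a mean log2 ratio of 0.66 (adjusted p = 0.453 by limma) and overlapping diets. Xaf1, which binds the apoptosis inhibitor XIAP, stood at 3.38, 3.64 and 3.52 on KO chow and at 2.83, 3.05 and 2.94 on KO HFD arrays. These groups were apart, and the log2 ratios were -0.55, -0.58 and -0.59 (adjusted p = 0.535 by limma). Ifi44 had a mean log2 ratio of 1.91 in KO aorta, which was 5.34 in experiment 1 and 0.31 and 0.08 in the others. Among markers of other cells, adipocyte markers had median log2 ratios of -3.47 in WT and -3.54 in KO aorta, macrophage markers -0.97 and -0.26, and endothelial markers -0.49 and -0.95. Their part in the aortic values was not tested.

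The tests of the differences between these diet responses called 0 members. The KO response minus the WT response had a median of -0.24 in aorta, where 7 members were lower in all 3 experiments against 10.4% of genes, and 0.01 in muscle, where 5 were higher and 7 lower in all 3 against 14.7% and 13.7% of genes. Without experiment 1 these medians were -0.20 in aorta and -0.03 in muscle. The widest differences of 1 direction were -0.97 for Rsad2 in aorta and -1.59 for Zbp1 in muscle. No member met an unadjusted p of 0.05 in either tissue, where 0.921% of genes did so higher and 0.821% lower in aorta and 1.36% and 1.64% in muscle. Without experiment 1, 1 lower member met it in each tissue, where 712 of 25865 probes in aorta and 1071 of 25682 in muscle did in either direction. The aortic response minus the muscle response had a median of -0.28 in WT, with 9 members lower in all 3 experiments against 12.6% of genes, and of -0.56 in KO, with 16 lower in all 3 against 18.5%. An unadjusted p of 0.05 was met by 1 lower member in WT, Ifit2 with -0.85 (0.0047 on its second probe), and by 4 lower members in KO, against 2.52% and 2.87% of genes. Those 4 were Oas1a and Cmpk2, both with -1.04, Ifi35 with -0.93 and Xaf1 with -0.88, with adjusted p from 0.657 to 0.731 by limma. Rsad2, Ifi27l2a and Gbp3 had larger differences of -1.65, -1.19 and -1.08 that did not meet it. A diet response in muscle beyond that in aorta was therefore not shown by a test of the difference for any single member.

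Between the strains, 1 member stood apart, Ifi44l (chr3:151758737-151762891 on GRCm38.p6), a relative of Ifi44 that also encodes the minor histocompatibility antigen H28. In aorta it stood at -8.16, -8.57 and -8.61 on WT chow, -5.71, -8.22 and -8.62 on WT HFD, -3.26, -2.55 and -1.74 on KO chow, and -4.35, -3.17 and -0.92 on KO HFD arrays. In muscle it stood at -8.40, -9.51 and -7.54 on WT chow, -2.95, -8.46 and -7.59 on WT HFD, -2.65, -2.52 and -2.38 on KO chow, and -2.58, -1.40 and -1.73 on KO HFD arrays. Every KO array was well above background, and of the WT arrays only the HFD arrays of experiment 1 were, which are those that stood between the strains on the 9 probes above. Ifi44l was at least 13.1-fold higher in KO than in WT on chow in aorta and at least 13.3-fold higher in muscle. These bounds take the WT arrays at the lowest signal that was well above background on each.

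The fitted log2 difference of Ifi44l, which is no bound, was 5.93 in aorta on chow (SE 0.89, adjusted p = 0.0869 by limma), 5.97 in muscle on chow (adjusted p = 0.563), 4.70 in aorta on HFD and 4.43 in muscle on HFD (both adjusted p = 1.00). In both tissues the probe passed the filter only through the KO groups, so the test is no independent support for the split. On HFD the difference was 1.35 and 0.38 in experiment 1 of aorta and muscle, where the WT arrays were well above background. Its neighbour Ifi44 (chr3:151730922-151749910) did not share this split. Ifi44 was lowest on the experiment 1 chow arrays, at -3.99 for WT and -7.52 for KO in aorta.

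**Figure D4:**
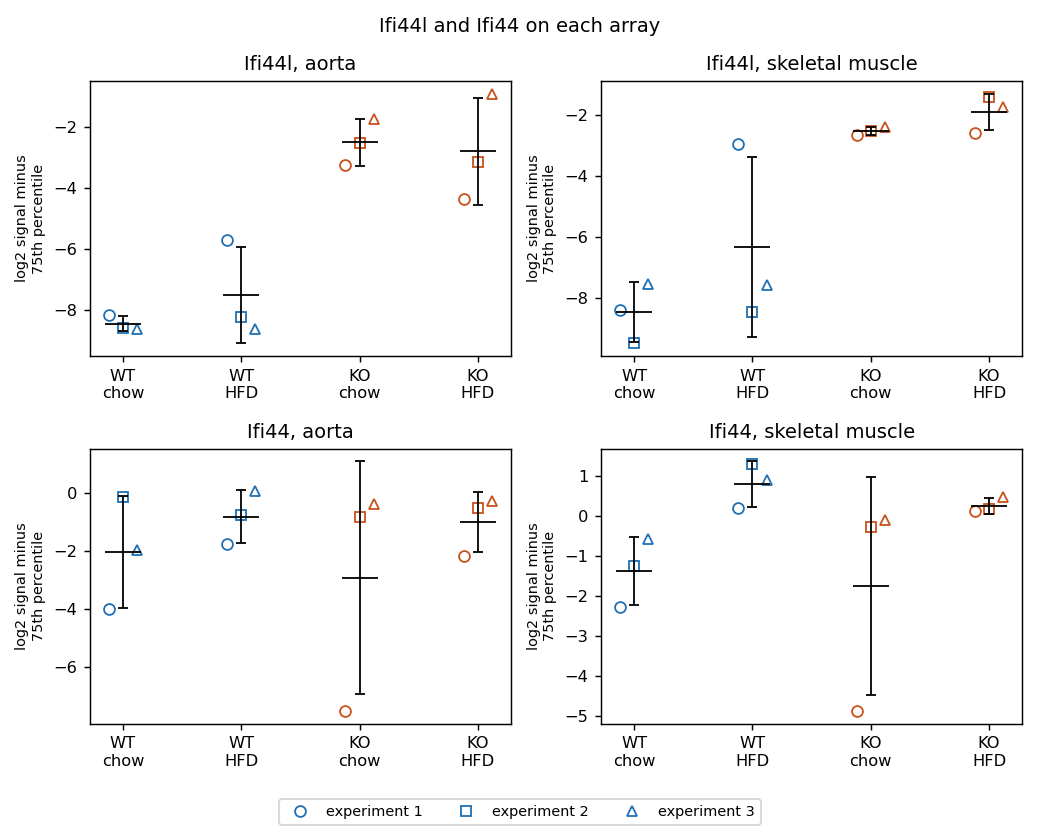
Log2 signal minus the array's 75th percentile (y axis) of Ifi44l and Ifi44 by group (x axis) in aorta and skeletal muscle, with 1 symbol per experiment and the mean and SD of 3 arrays in black. Ifi44l lies between -9.51 and -7.54 on all WT arrays except the 2 HFD arrays of experiment 1, and between -4.35 and -0.92 on the KO arrays, whereas the strains overlap for Ifi44.

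Over the members, the median log2 difference of KO from WT was 0.32 in aorta on chow, 0.05 in aorta on HFD, -0.05 in muscle on chow and 0.01 in muscle on HFD. Over all genes tested it was 0.03, 0.02, 0.01 and 0.03. Without experiment 1 the members' medians on HFD were 0.07 in aorta and -0.09 in muscle, against 0.07 and 0.02 over all genes tested. limma called 0 members in each of the 4 comparisons, with a background of 0% of genes. On chow in aorta 11 members were higher in all 3 experiments, against 13.9% of genes, and 1 was lower, against 10.4%. On chow in aorta Rsad2 was 1.06 higher in KO, with differences of 1.64, 0.37 and 1.15 in the 3 experiments, and Psmb9 was 0.89 higher. The 2 other Rsad2 probes gave 2.92, -1.07 and 0.32, and 2.89, 0.14 and -0.13. The single direction of Rsad2 thus holds on its brightest probe only. Oasl1 and Zbp1 had 1.16 and 1.08 there, but Oasl1 had -0.01 in experiment 2 and Zbp1 -1.53 in experiment 1. These 4 had an adjusted p of 1.00 by limma. On HFD in aorta 4 were higher and 2 lower, against 13.7% and 9.54%. In muscle 8 were higher and 10 lower on chow, against 18.6% and 15.9%, and 5 were higher and 10 lower on HFD, against 15.9% and 11.5%. Without experiment 1, 5 were higher and 19 lower in muscle on HFD, a count that needs fewer experiments. The share of all genes for that count was not computed. Zbp1 had a log2 difference of 1.43 in KO muscle on chow, with no overlap, and Tap1 and Stat2 had -0.84 and -0.85 in KO muscle on HFD (adjusted p = 1.00 by limma for all 3). Among further interferon-stimulated genes, Epsti1 was well above background on all 3 KO chow and on none of the WT chow muscle arrays, so that it was at least 6.09-fold higher in KO (adjusted p = 0.853 by limma).

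The clearest contrast was between the tissues. Over all groups, 23 of 38 members were called lower in aortic than in muscle endothelium, against 18% of genes, and 2 were called higher, against 14.7%. Oas3 is among the 23 and among the antiviral effectors called below. Its probe passed the filter only through the muscle HFD groups, so its call is no independent support. The median log2 difference of aorta from muscle was -0.89 over members and -0.20 over all genes tested, so that the members lay 0.68 below the general shift. In all 3 experiments 35 members were lower, against 46.6% of genes, and 3 were higher, against 26.5%. For 4 members every aortic array lay below every muscle array, against 2.81% of genes.

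Those 4 were Xaf1, Usp18, Ifi35 and Rtp4. Xaf1 ran from 2.68 to 3.64 with a median of 2.99 in aorta and from 3.93 to 4.81 with a median of 4.18 in muscle, a log2 difference of -1.14 (SE 0.19, adjusted p = 0.000188 by limma). Usp18 ran from -0.20 to 1.26 with a median of 0.42 in aorta and from 1.34 to 2.43 with a median of 1.64 in muscle, and differed by -1.26 (adjusted p = 0.000288 by limma). Ifi35 and Rtp4, the latter a chaperone of receptors that is strongly induced by interferon, differed by -1.04 and -0.97.

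All 3 antigen processing genes were called lower in aorta. Tap1 had the largest difference among the members called lower, -1.76 (SE 0.37, adjusted p = 0.00162 by limma), and ran from -3.90 to -1.13 with a median of -3.01 in aorta and from -1.87 to -0.49 with a median of -1.16 in muscle. The immunoproteasome subunits Psmb8 and Psmb9 differed by -0.95 and -0.98. Of the transcription factors 3 of 4 were called lower. Irf7 ran from -3.63 to -0.66 with a median of -2.22 in aorta and from -1.12 to 0.19 with a median of -0.61 in muscle, and differed by -1.54 (adjusted p = 0.00433 by limma). Stat2 and Irf9 differed by -0.92 and -0.70, and Irf1 by -0.20 with no call. Isg15 ran from -0.50 to 1.34 with a median of 0.93 in aorta and from 1.26 to 2.61 with a median of 1.95 in muscle, and differed by -1.14 in the fit. All 4 GTPases were called lower, by -0.55 for Gbp2 to -0.91 for Igtp. Of the 16 antiviral effectors tested 8 were called, all lower, among them Oasl1 at -1.36, Rsad2 at -1.12, Cmpk2 at -1.07, Bst2 at -1.04 and Oas1a at -0.94. Ifit2 and Ifit3 were not called, with differences of -0.15 and -0.32.

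Zbp1 and Ifi27l2a, a small mitochondrial and membrane protein of the interferon response, went the other way. Ifi27l2a ran from 3.41 to 5.34 with a median of 4.72 in aorta and from 2.60 to 4.26 with a median of 2.94 in muscle, a difference of 1.48 (adjusted p = 0.00187 by limma). Zbp1 ran from -4.95 to -0.65 with a median of -2.07 in aorta and from -6.73 to -2.26 with a median of -3.97 in muscle, a difference of 1.86 (adjusted p = 0.0181 by limma). The tissues overlapped for both. The signal of the further interferon-stimulated genes went with the members: of 50 tested, 32 were called and 30 of those were lower in aorta. Exceptions were the chemokine Cxcl10, higher by 2.03, and Ifi205, a relative of Ifi204, higher by 3.24 (adjusted p = 0.0144 by limma), and, among regulators, Socs1, an inhibitor of JAK kinases, higher by 1.46. Ifi205 passed the filter only through aortic groups, so its call is no independent support. No muscle group had it well above background on all 3 arrays, which limits the size of its difference. Irf8 was lower by 1.95 in aorta (adjusted p = 0.000588 by limma).

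**Figure D5:**
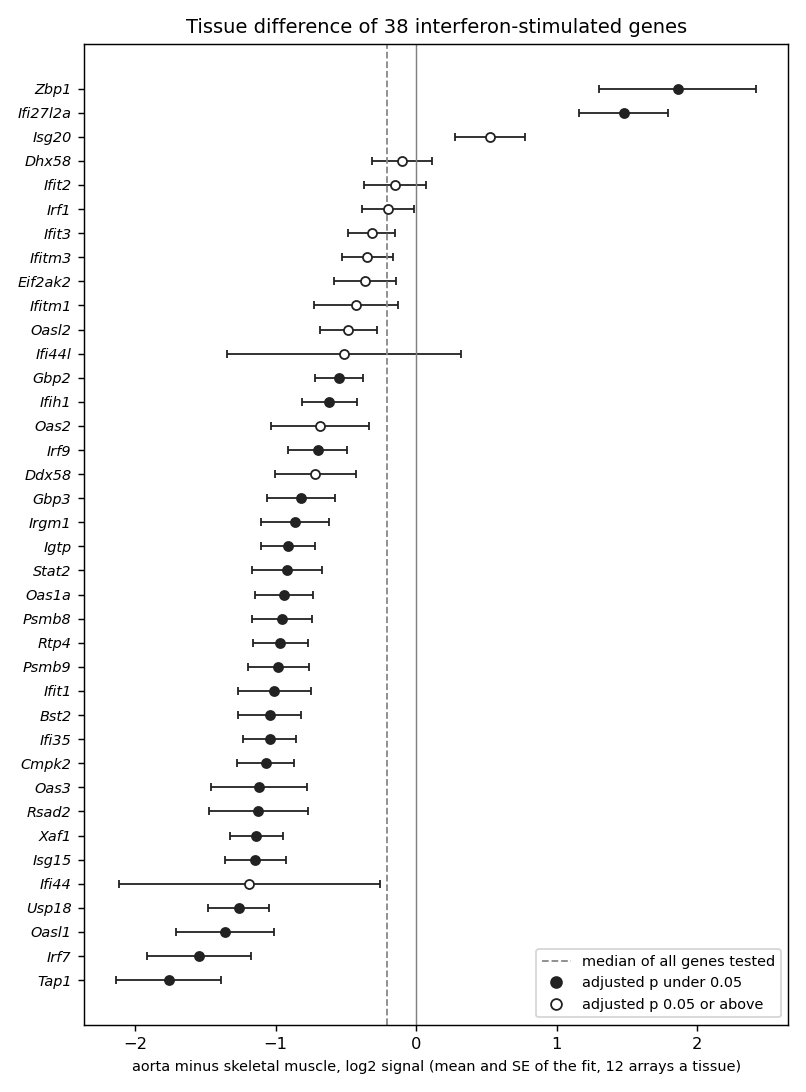
Log2 difference of aorta from skeletal muscle (x axis, mean and SE of the fit over 12 arrays a tissue) for 38 interferon-stimulated genes (y axis), with filled points for adjusted p under 0.05 and a dashed line at the median of all genes tested. All genes but Zbp1, Ifi27l2a and Isg20 lie left of 0.

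The tissues differed in more than these genes. The summed level of endothelial markers, relative to the 75th percentile, ran from 126 to 451 in aorta and from 452 to 695 in muscle, and 11 of 12 were called lower in aorta, with a median of -1.11. Fibroblast markers were 4.01 higher in aorta in the median, with 7 of 7 called, and skeletal muscle fibre markers 6.51 lower, with 9 of 9 called. The endothelial median of -1.11 and the members' median of -0.89 thus lay side by side, and the part of cell content in the tissue result was not tested. Slides held 1 tissue each, so that slide entered as a random block. The tissue difference of the members had medians of -0.84 without experiment 1 and -0.90 without experiment 3, whereas the number of called members was 15 without experiment 1 and 12 without experiment 2.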

How the data were processed

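RNA of sorted endothelial cells was amplified, labelled with Cy3 and hybridised to single-colour Agilent whole mouse genome arrays. The scanner files deposited by the authors hold background-corrected intensity per spot (gProcessedSignal); the headers name Feature Extraction 10.5.1.1. A table of log2 values of the same arrays, deposited by the authors, served as an alternative. Depth in reads does not apply, and 3 arrays per group limit the precision.

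Control spots and outlier-flagged spots were left out, spots of a probe were averaged, and the log2 intensity minus the log2 of the array's 75th percentile was fitted with limma 3.58.1 in R 4.3.3. Probes entered the fit of a tissue if 1 or more of its groups had them well above background on all 3 arrays: 25865 probes in aorta, 25682 in muscle and 27387 over both. p-values were Benjamini-Hochberg adjusted over all probes tested, and a call is an adjusted p under 0.05. The brightest probe stood for its gene within a tissue. Diet effects were fitted within strain and experiment as pairs, strain effects on the 4 group means, and tissue with the slide as a random block (correlation 0.28). The strain fit did not use the slide that the strains share as a block, so its p-values by limma ignore that pairing. The experiment number marks a shared slide. Deviations from the group mean of same-numbered chow and HFD arrays of a strain correlated with a median r of 0.31 in muscle and 0.095 in aorta. Same-numbered arrays of different strains gave 0.34 and 0.23. Chow and HFD arrays of a strain with different numbers gave -0.14 and -0.08. Such deviations cancel within a group, so the values for different numbers are pushed down by construction and are no independent baseline. The fits were tested on simulated data.

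The members and lists were chosen with earlier results of these data known. All members could be named. Array values are given for the 5 largest differences of 1 direction in each diet comparison (fewer in aorta) and for the members that the strain and tissue comparisons turn on, and Ifit2, Ifi204 and Gbp4 were added because the study lists them. Of the other pathway genes that were called or past a log2 ratio of 1 in all 3 experiments, a few are named and the rest counted, with Gbp4 and Ifi204 as exceptions, and 1 pathway gene is not reported here. Accessions were matched to RefSeq for names, promoters and coordinates (GRCm38.p6).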

Additional observations from a re-analysis of the deposited data

Results flagged for a closer look

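For 2 members the diet ratio in KO mice ran in opposite directions in the tissues in every experiment. Among all genes tested, 14.8% were lower in all 3 experiments in KO aorta and 15.3% higher in all 3 in KO muscle. The share that met both was not counted, so the 2 cannot be set against a background. Ifi35, which modulates innate signalling, gave a mean HFD response of -0.41 ± 0.19 (log2, SD) in aorta and 0.53 ± 0.24 in muscle, a difference of -0.93 (adjusted p = 0.707 by limma). Xaf1 had -0.57 ± 0.02 in aorta and 0.31 ± 0.29 in muscle, a difference of -0.88 (adjusted p = 0.731 by limma). Both were below 0 in 3 of 3 experiments in aorta and above 0 in 3 of 3 in muscle, and neither difference passed the test. Groups of 3 arrays were not tested for outlying samples.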

How the results depend on the processing

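The alternatives were the deposited log2 table, quantile normalization, normexp background correction, a stricter filter on dim probes or none, the second brightest probe, another replicate block, and leaving out each experiment. The number of called members stayed at 0 in all diet, strain and difference-of-response comparisons under every alternative run, including the methods' one-sample test, at which 11 members in WT and 5 in KO muscle met an unadjusted p of 0.05 and 0 did after Benjamini-Hochberg adjustment. Without the replicate block for the pairs 11 members in WT and 12 in KO muscle met an unadjusted p of 0.05, and with the slide as the replicate block 17 and 18 did. In the tissue comparison the experiment number, which both tissues share, as a fixed replicate block in place of the random slide block called 33 members and no block 31, against 25. Leaving out 1 experiment gave 10 to 23 members above 0 in every remaining experiment in WT aorta, against 8, and 9 to 12 in KO aorta, against 5, a count that needs fewer experiments; 30 to 34 in WT and 27 to 30 in KO muscle; and 12 to 23 called members between the tissues. The tissue median was -0.78 under quantile normalization and -0.62 under the deposited table, where the median of all genes was -0.14 and 0.06; relative to that shift the members lay at -0.64 and -0.68, against -0.68. The deposited table called 18 members, 3 of them higher. On the second brightest probe, Irf9 reversed in the strain difference of the muscle response (0.86) and Ifit2 in the tissue difference of the WT response (0.0047); the cause was not tested. Of single named genes 39 values lost their call, all between the tissues. Dim probes such as Oas3 and Ifi44l limit the ratios.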
